A study of Mus musculus with 3 samples.

Results

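The genes described here encode the ligands of the tumour necrosis factor (TNF) superfamily and their receptors. They were chosen by name alone, as genes whose symbol starts with Tnfsf or Tnfrsf together with Cd40, Cd27, Cd70, Cd40lg, Fas, Fasl, Lta, Ltb, Ltbr, Tnf and Ngfr, and 41 of the 33605 gene symbols in the tables met that rule. Of these, 16 encode ligands and 25 encode receptors. RNA was measured in CD43- B cells from the spleen of C57BL/6 mice, all of which were kept in culture for 3 days with lipopolysaccharide (LPS), a component of bacterial outer membranes that activates B cells, and the T cell cytokine IL4. One culture received the vehicle DMSO, one JQ1+ at 80 nM, which displaces BET proteins from acetylated chromatin, and one flavopiridol at 30 nM, which inhibits cyclin-dependent kinases including the pause-release kinase Cdk9. The age of the mice, their number and any sharing of mice between cultures are not known here, and the culture labels of both drug samples repeat the wording of the DMSO sample. Each treatment has 1 library, so the differences below compare single libraries, cannot be set against the spread of replicates and carry no test.

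Ligands of this superfamily are mostly trimeric proteins anchored in the membrane, and some are shed. Their receptors carry cysteine-rich repeats outside the cell and signal either through TRAF adaptors towards NF-kB and MAP kinases or, where they hold a death domain, towards caspases. In B cells, Cd40 receives help from T cells, the receptors of BAFF and APRIL sustain survival and antibody production, Fas limits activated cells, and lymphotoxin made by B cells shapes the spleen and lymph nodes.

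The deposited counts summed to between 50184508 and 59786847 per library. RPKM, reads per kilobase of gene scaled to a library total, is the unit of all levels below, and a gene counted as measured when its mean over the 3 libraries was at least 1 RPKM, which held for 14790 symbols. Measured genes are described as rising or falling only where log2 of the ratio of (RPKM + 1) was at least 1 in size, that is 2-fold, and this scale understates the change of low genes. Fold values without that addition are plain RPKM ratios, given with a 95% interval that covers counting error only. All 8 B cell identity genes stood at 38.3 RPKM or more in every library. Markers of other cells ranged widely. Cd3e stood at 0.066, 0 and 0 RPKM in DMSO, JQ1+ and flavopiridol, and the NK cell gene Ncr1 at 0 in all 3. In DMSO, Cd2 and Lck of the T cell list stood at 33.5 and 20.5 RPKM. Cd3d, Cd4 and Cd8a of the same list stood at 0.359, 0.130 and 0.288. Pecam1 of the stroma and endothelium list stood at 21.7, and Cdh5 and Kdr of that list at 0.721 and 0.020. The myeloid marker Cd68 stood at 20.5 and the dendritic cell markers Bst2, Batf3 and Flt3 at 247, 55.9 and 26.6. In bulk RNA, fewer cells of a type and less RNA per cell cannot be told apart.

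The bases just before the start of 5 members on which the results turn are shown first: Tnfsf8 and Tnfsf15, neighbours that rose with flavopiridol, Tnfsf14, which rose with both drugs, Ltb, which fell with both, and Tnfrsf8, which fell with JQ1+. The sequences are RefSeq's for the mouse build GRCm38.p6 and hold the 250 bases before the gene's start, 5′ to 3′ on the strand of the gene. They lie at chr4:63861285-63861534 (minus strand), chr4:63745060-63745309 (minus), chr17:57194182-57194431 (minus), chr17:35194257-35194506 (plus) and chr4:145315165-145315414 (minus). Capitals mark matches to the kappa B consensus, the site bound by NF-kB, or to the TATA box TATAAA, each searched on both strands.
Tnfsf8: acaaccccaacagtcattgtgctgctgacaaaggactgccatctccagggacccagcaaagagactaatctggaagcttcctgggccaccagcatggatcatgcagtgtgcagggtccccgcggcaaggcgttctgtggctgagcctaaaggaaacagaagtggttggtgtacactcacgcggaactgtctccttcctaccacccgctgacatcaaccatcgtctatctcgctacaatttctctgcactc
Tnfsf15: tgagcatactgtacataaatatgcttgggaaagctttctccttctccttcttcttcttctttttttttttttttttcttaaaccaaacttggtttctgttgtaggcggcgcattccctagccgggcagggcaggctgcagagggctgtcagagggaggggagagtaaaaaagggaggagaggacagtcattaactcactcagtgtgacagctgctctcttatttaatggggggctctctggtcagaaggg
Tnfsf14: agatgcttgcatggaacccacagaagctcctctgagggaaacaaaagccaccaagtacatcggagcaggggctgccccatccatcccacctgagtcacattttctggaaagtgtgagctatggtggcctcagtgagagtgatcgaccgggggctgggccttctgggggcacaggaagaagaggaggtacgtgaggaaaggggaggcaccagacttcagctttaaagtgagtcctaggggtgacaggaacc
Ltb: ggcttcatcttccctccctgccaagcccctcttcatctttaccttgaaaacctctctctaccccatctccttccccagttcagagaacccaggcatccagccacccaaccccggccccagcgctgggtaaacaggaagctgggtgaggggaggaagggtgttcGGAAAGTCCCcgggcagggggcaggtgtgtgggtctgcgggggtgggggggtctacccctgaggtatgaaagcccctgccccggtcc
Tnfrsf8: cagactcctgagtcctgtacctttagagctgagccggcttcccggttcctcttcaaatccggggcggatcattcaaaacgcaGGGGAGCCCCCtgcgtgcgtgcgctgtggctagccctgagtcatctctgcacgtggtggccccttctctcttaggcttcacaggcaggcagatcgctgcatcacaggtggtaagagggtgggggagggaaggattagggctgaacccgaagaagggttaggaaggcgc

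The windows of Ltb and Tnfrsf8 each held a kappa B match, and those of Tnfsf8, Tnfsf15 and Tnfsf14 held neither motif. In Ltb the match was GGAAAGTCCC, read on the opposite strand, beginning 87 bases before the start. In Tnfrsf8, 2 overlapping matches, each read on both strands, began 168 and 167 bases before the start. The printed genes were picked by their changes, and other members did not repeat this split. Lta and Tnfrsf18, which also fell with JQ1+, had no kappa B match, and Lta had TATAAA. Tnfsf11, which rose with flavopiridol, had TATAAA on the opposite strand, beginning 32 bases before its start. Ngfr, which rose with JQ1+, held neither motif. Tnfsf4, Tnfsf9 and Tnfrsf26, which also passed the 2-fold rule, had no sequence. The 32 members with a sequence have 36 windows, as some genes have several starts; 4 windows held a kappa B match, where 7.25% of 32851 windows of all genes did, and 6 held TATAAA, where 12.4% did. Tnf, for which no sequence is printed, had TATAAA beginning 29 bases before its start. A match is a description of letters, and no match says only that these letters are not in this window.

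The level of ligand RNA was carried by a few genes. In DMSO the 16 ligands summed to 203 RPKM, and Tnf, Ltb and Lta made up 86.3% of that sum. With JQ1+ the ligand sum was 103 RPKM with 83.0% in those genes, and with flavopiridol it was 196 RPKM with 60.0%. So the sum with flavopiridol was close to that of DMSO while its make-up differed. In DMSO the order was Tnf, Ltb, Lta, Tnfsf9 and Tnfsf4, and with flavopiridol it was Tnf, Lta, Tnfsf9, Tnfsf4 and Tnfsf8. At least 1 RPKM was reached by 10 ligands in DMSO, 7 with JQ1+ and 11 with flavopiridol.

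**Figure D1:**
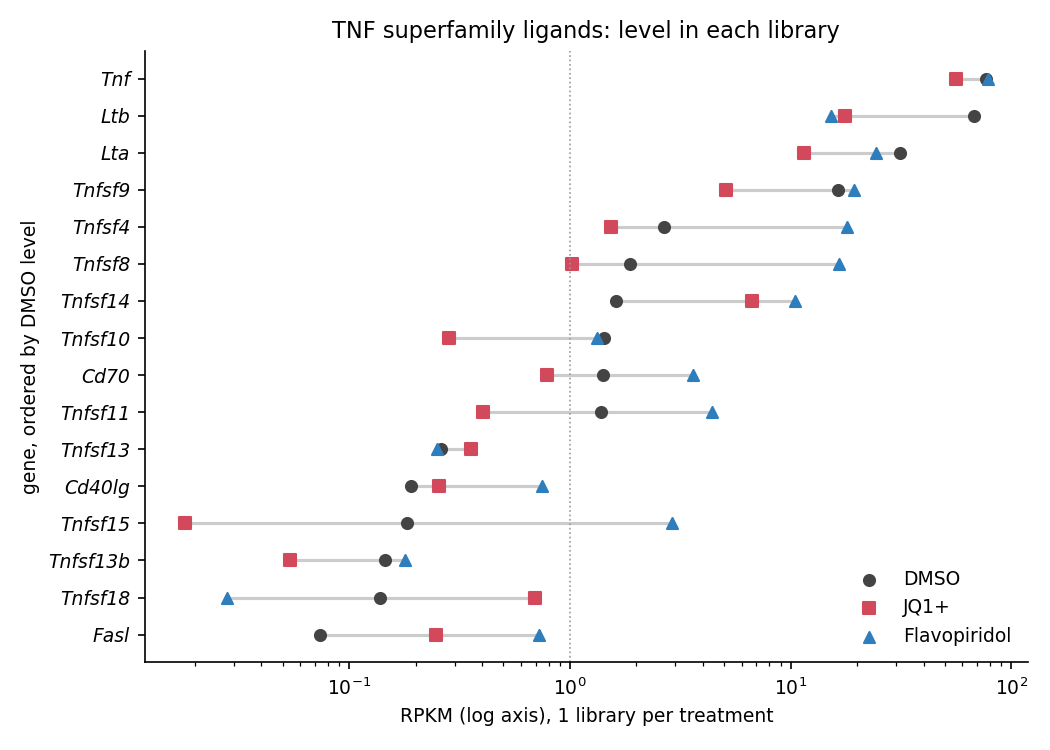
RPKM of the 16 ligand genes (log axis) in the DMSO, JQ1+ and flavopiridol libraries, 1 point per library, ordered by the DMSO level; the dotted line is 1 RPKM. Tnf stands near the top in all 3 libraries, while Tnfsf8, Tnfsf4 and Tnfsf15 stand far to the right in flavopiridol alone.

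Of the 16 ligands, 11 were measured, and these moved in different directions with the 2 drugs. With JQ1+, Ltb, Lta and Tnfsf9 fell and Tnfsf14 rose, so that 3 fell and 1 rose, where 5.29% of all measured genes fell and 1.98% rose. With flavopiridol, Tnfsf8, Tnfsf4, Tnfsf14, Tnfsf15 and Tnfsf11 rose and Ltb fell, 5 against 1, where 3.55% of all measured genes rose and 2.88% fell. The median log2 change of the measured ligands was -0.54 with JQ1+ and 0.93 with flavopiridol, beside -0.08 and 0.13 over all measured genes. Tnfsf15 passed the minimum only through its flavopiridol level, so it had to differ. With a minimum of 1 RPKM in the DMSO library alone, an alternative chosen after the data were seen, 4 of 10 ligands rose with flavopiridol, where 2.34% of genes did. Both comparisons share the DMSO library.

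Tnf, Lta and Ltb lie side by side on chromosome 17, and their changes differed. Tnf, the inflammatory cytokine that names the family, stood at 76.3 RPKM in DMSO, 55.9 in JQ1+ and 78.3 in flavopiridol. Its ratio to DMSO was 0.733 with JQ1+ (interval 0.661 to 0.813) and 1.03 with flavopiridol (interval 0.933 to 1.13), both within 2-fold. Ltb, which anchors lymphotoxin in the membrane as a heterotrimer with Lta, stood at 68.0 RPKM in DMSO, 17.7 in JQ1+ and 15.2 in flavopiridol. It fell 3.84-fold with JQ1+ (interval 3.26 to 4.54) and 4.48-fold with flavopiridol (interval 3.73 to 5.40), the one ligand that was low in both drug libraries by the 2-fold rule. Lta, the lymphotoxin subunit that can also be secreted, stood at 31.1 RPKM in DMSO, 11.5 in JQ1+ and 24.3 in flavopiridol. It fell 2.72-fold with JQ1+ (interval 2.17 to 3.42), while with flavopiridol it was within 2-fold, 1.28-fold lower (interval 1.07 to 1.54). Thus Ltb was low with both drugs, Lta with JQ1+ alone, and Tnf passed the rule with neither.

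Co-stimulatory ligands, which signal to receptors mostly studied on T cells, held most of the rises with flavopiridol, where 4 of their 6 measured genes rose beside 3.55% of all measured genes. One of these, Tnfsf15, passed the minimum only through flavopiridol. Tnfsf8, the CD30 ligand, stood at 1.87 RPKM in DMSO, 1.02 in JQ1+ and 16.6 in flavopiridol, a rise of 8.86-fold with flavopiridol (interval 6.64 to 12.0). Tnfsf4, the OX40 ligand through which antigen-presenting cells sustain T cell help, stood at 2.68 RPKM in DMSO, 1.53 in JQ1+ and 17.9 in flavopiridol, a rise of 6.70-fold with flavopiridol (interval 4.57 to 10.1). Both were within 2-fold of DMSO with JQ1+, at log2 changes of -0.51 and -0.54. Tnfsf15, also called TL1A, stood at 0.183 RPKM in DMSO, 0.018 in JQ1+ and 2.89 in flavopiridol, which was 15.8-fold above DMSO (interval 7.60 to 36.5). Only 2 counts lay behind the JQ1+ level of Tnfsf15 and 23 behind that in DMSO. All 3 genes were thus low in DMSO and in JQ1+ and high in flavopiridol.

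Tnfsf14, Tnfsf9 and Cd70 form another cluster on chromosome 17 and took separate courses. Tnfsf14, known as LIGHT, which binds Tnfrsf14 and the lymphotoxin beta receptor, stood at 1.62 RPKM in DMSO, 6.69 in JQ1+ and 10.5 in flavopiridol. It rose 4.12-fold with JQ1+ (interval 2.55 to 6.85) and 6.45-fold with flavopiridol (interval 4.06 to 10.5), and was the one ligand higher than DMSO past 2-fold in both drug libraries. Tnfsf9, the ligand of the T cell activating receptor Tnfrsf9, stood at 16.4 RPKM in DMSO, 5.09 in JQ1+ and 19.4 in flavopiridol, and fell 3.22-fold with JQ1+ (interval 2.28 to 4.66). Part of its exons, 14.9%, is overlapped on the opposite strand by Gm11110, whose own levels were 4.2, 2.3 and 6.2 RPKM in the same order, and whether reads were counted by strand is not known. Cd70, the ligand of Cd27, stood at 1.41 RPKM in DMSO, 0.788 in JQ1+ and 3.60 in flavopiridol, and its log2 changes of -0.43 and 0.93 were within the 2-fold rule. In this cluster the flavopiridol level was the highest of the 3 libraries for each gene, and JQ1+ was the lowest for Tnfsf9 and Cd70 but not for Tnfsf14.

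The remaining measured ligands were Tnfsf11 and Tnfsf10. Tnfsf11, the RANK ligand that drives osteoclast formation and lymph node development, stood at 1.38 RPKM in DMSO, 0.403 in JQ1+ and 4.39 in flavopiridol, a rise of 3.18-fold with flavopiridol (interval 1.94 to 5.41). Tnfsf10, the death ligand TRAIL and a known interferon-stimulated gene, stood at 1.43 RPKM in DMSO, 0.282 in JQ1+ and 1.33 in flavopiridol. In plain RPKM Tnfsf10 was 5.06-fold lower with JQ1+ (interval 2.55 to 11.2), but its log2 change with the added 1 RPKM was -0.92, inside the rule. Of the 5 ligands below the minimum, Fasl, the death ligand of cytotoxic cells, reached 0.722 RPKM at most, Cd40lg, the T cell ligand of Cd40, 0.746 and Tnfsf18 0.693. Tnfsf13, which encodes APRIL, and Tnfsf13b, which encodes BAFF, reached 0.357 and 0.179 RPKM. Tnfsf13 shares 60.0% of its exon bases with a read-through gene, so the split of its few reads is uncertain.

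The receptor sum was 1014 RPKM in DMSO, 911 in JQ1+ and 1156 in flavopiridol, led by the receptors of BAFF. Tnfrsf13c and Tnfrsf13b together made up 63.8%, 77.5% and 66.2% of the sum in that order. Next in DMSO came Tnfrsf8, Cd40 and Fas, and these 5 genes held 87.9% of the receptor sum.

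**Figure D2:**
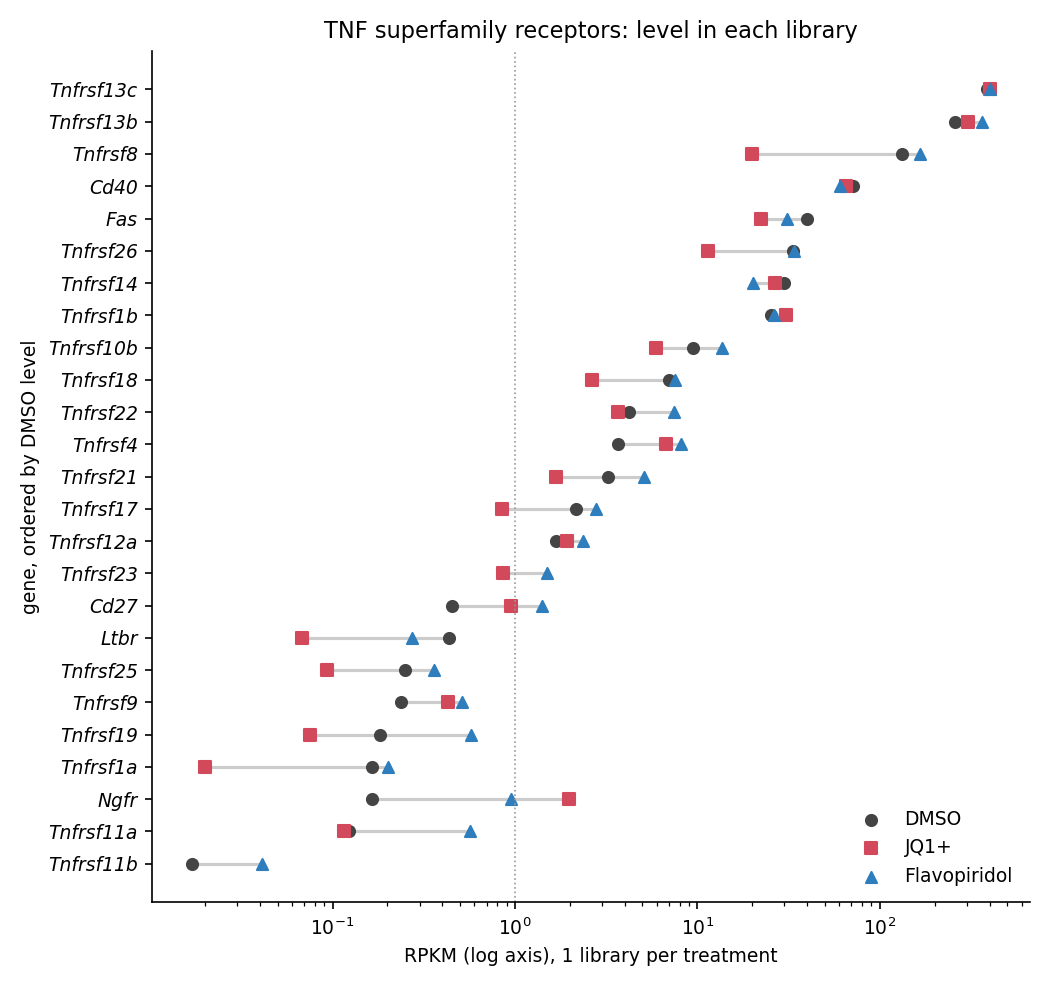
RPKM of the 25 receptor genes (log axis) in the DMSO, JQ1+ and flavopiridol libraries, 1 point per library, ordered by the DMSO level; the dotted line is 1 RPKM, and Tnfrsf11b in JQ1+, at 0, is not drawn. Tnfrsf13c and Tnfrsf13b lie close together at the top in all libraries, and Tnfrsf8 is the abundant receptor with the widest spread, from 19.9 to 166 RPKM.

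Of the 25 receptors, 17 were measured. With JQ1+, Tnfrsf8, Tnfrsf26 and Tnfrsf18 fell and Ngfr rose, 3 against 1, where 5.29% of measured genes fell and 1.98% rose. With flavopiridol no receptor rose and none fell by the rule, where 3.55% and 2.88% of measured genes did. At a smaller addition of 0.1 RPKM, Ngfr and Tnfrsf4 rose, where 5.86% of genes did. The median log2 change of the measured receptors was -0.15 with JQ1+ and 0.32 with flavopiridol, beside -0.08 and 0.13 over all measured genes. Ngfr passed the minimum through its JQ1+ level, so it had to differ. With a minimum of 1 RPKM in DMSO alone no receptor rose with JQ1+, where 1.29% of genes did.

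The receptors of BAFF and APRIL did not pass the 2-fold rule with either drug. Tnfrsf13c, the BAFF receptor on which mature B cells depend, stood at 388 RPKM in DMSO, 400 in JQ1+ and 402 in flavopiridol. The counting interval of its ratio was 0.992 to 1.07 with JQ1+ and 0.996 to 1.07 with flavopiridol, so its 3 levels lay close together. Tnfrsf13b, also called TACI, which binds both BAFF and APRIL, stood at 259 RPKM in DMSO, 306 in JQ1+ and 364 in flavopiridol, that is 1.18 times DMSO with JQ1+ (interval 1.14 to 1.23) and 1.41 times with flavopiridol (interval 1.36 to 1.46). The order of the drugs did not hold after rescaling by the median of ratios, where its log2 changes were 0.35 with JQ1+ and 0.32 with flavopiridol. Tnfrsf17, the plasma cell receptor BCMA, stood far lower, at 2.16, 0.846 and 2.79 RPKM, and had 13 counts in JQ1+. Its plain ratio with JQ1+ was 0.392 (interval 0.104 to 1.21), and its log2 change was -0.77 with the added 1 RPKM and passed the rule, at -1.25, with 0.1 RPKM.

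Among co-stimulatory receptors Tnfrsf8 had the widest range. Tnfrsf8, the activation marker CD30, stood at 133 RPKM in DMSO, 19.9 in JQ1+ and 166 in flavopiridol. With JQ1+ it fell 6.67-fold (interval 6.05 to 7.37), and with flavopiridol it was 1.25 times DMSO (interval 1.19 to 1.31). Tnfrsf18, also called GITR, stood at 6.97 RPKM in DMSO, 2.65 in JQ1+ and 7.53 in flavopiridol, and fell 2.63-fold with JQ1+ (interval 1.68 to 4.25). Its log2 change no longer passed the rule with an addition of 5 RPKM (-0.65) or in CPM (-0.94). The transcript Gm16008 covers 27.2% of the exons of Tnfrsf18 on the opposite strand, and its levels were 3.2, 1.5 and 4.2 RPKM. Both receptors were thus low in JQ1+ and near DMSO in flavopiridol. Tnfrsf4, or OX40, stood at 3.66 RPKM in DMSO, 6.76 in JQ1+ and 8.17 in flavopiridol; its log2 change of 0.98 with flavopiridol was just inside the rule, and its plain ratio was 2.24 (interval 1.48 to 3.44).

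Cd40, the receptor for T cell help, stood at 71.6 RPKM in DMSO, 65.5 in JQ1+ and 60.8 in flavopiridol. Tnfrsf14, known as HVEM, stood at 29.8, 26.7 and 20.2 RPKM in that order. The TNF receptor Tnfrsf1b stood at 25.4, 30.7 and 26.2. None of these 3 abundant receptors passed the rule with either drug. Below the minimum, Cd27, a receptor of memory lymphocytes, reached 1.41 RPKM with flavopiridol and Tnfrsf9 0.514.

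Of 4 measured receptors with a death domain, Fas, Tnfrsf10b and Tnfrsf21 had lower levels with JQ1+ without passing 2-fold. Fas, which triggers apoptosis in activated lymphocytes, stood at 39.8 RPKM in DMSO, 22.5 in JQ1+ and 30.8 in flavopiridol, a ratio of 0.565 with JQ1+ (interval 0.486 to 0.655) and of 0.775 with flavopiridol (interval 0.674 to 0.890). Tnfrsf10b, the TRAIL receptor, stood at 9.48, 5.97 and 13.7 RPKM in that order, and Tnfrsf21, or DR6, at 3.24, 1.68 and 5.11. For both genes JQ1+ was the lowest library and flavopiridol the highest. Ngfr, the neurotrophin receptor, rose from 0.165 RPKM in DMSO to 1.97 in JQ1+, 11.9-fold (interval 4.45 to 43.4), and stood at 0.947 in flavopiridol, with 12 counts in DMSO, 128 in JQ1+ and 56 in flavopiridol. Tnfrsf25 and Tnfrsf1a, the TNF receptor with a death domain, were below the minimum, at 0.358 and 0.202 RPKM at most.

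Tnfrsf22, Tnfrsf23 and Tnfrsf26 are adjacent relatives on chromosome 7, the former pair known as decoy receptors for TRAIL, and reads could be split among them. Tnfrsf26 stood at 33.5 RPKM in DMSO, 11.4 in JQ1+ and 33.9 in flavopiridol, and fell 2.94-fold with JQ1+ (interval 2.54 to 3.42). Tnfrsf22 has a pair of rows in the tables; the higher row, used here, stood at 4.21, 3.67 and 7.42 RPKM, and the other at 3.69, 3.12 and 7.18. Tnfrsf23 stood at 0.864, 0.862 and 1.49. In this cluster JQ1+ was far below DMSO for Tnfrsf26 alone. The receptor of TWEAK, Tnfrsf12a, stood at 1.68, 1.93 and 2.36 RPKM. Ltbr, the lymphotoxin beta receptor of stromal and myeloid cells, reached 0.434 RPKM at most, Tnfrsf11a, which encodes RANK, 0.569 and Tnfrsf19 0.573. Tnfrsf11b, the soluble decoy osteoprotegerin, had 1, 0 and 2 counts. Taken as deposited, a count of 0 in JQ1+ allows up to 3 counts, or 0.0585 CPM, counts scaled to the library sum. With counts divided as for the intervals, that bound would be higher.

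**Figure D3:**
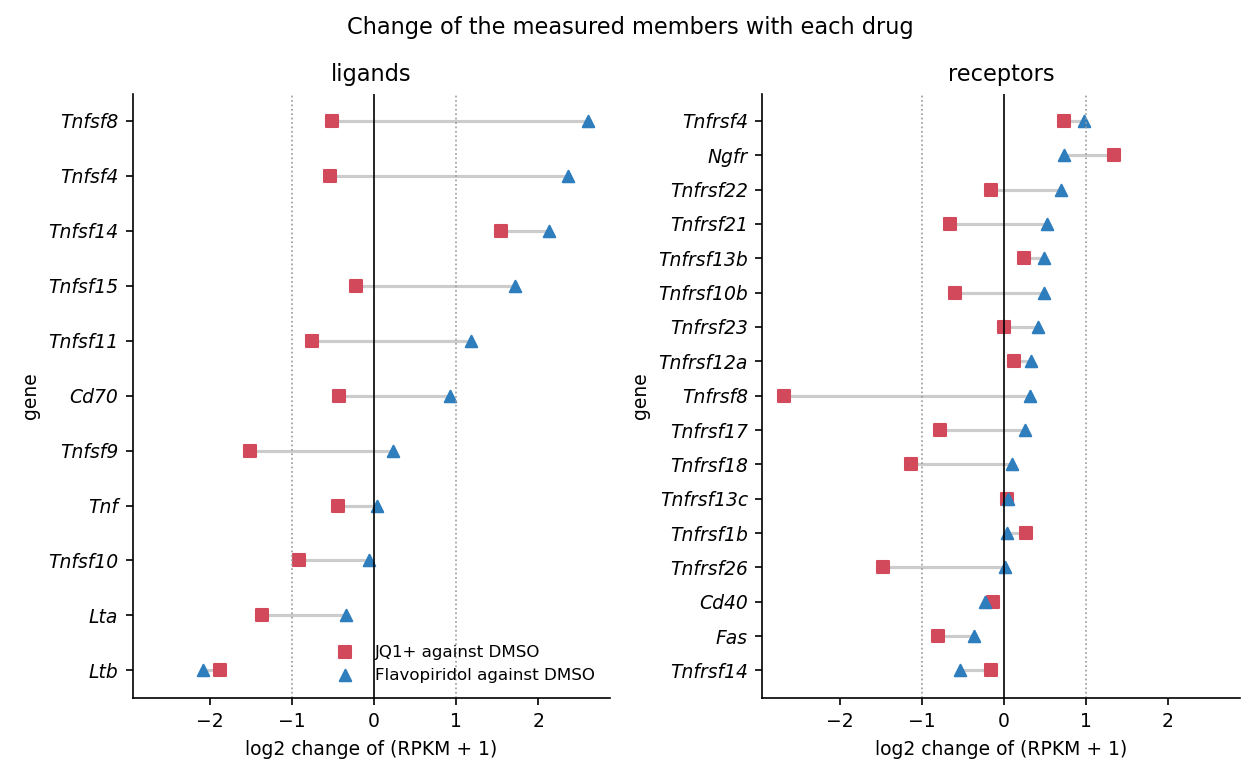
Log2 change of (RPKM + 1) against DMSO for the 11 measured ligands (left) and 17 measured receptors (right), squares for JQ1+ and triangles for flavopiridol; dotted lines mark 2-fold. Among ligands the triangles of Tnfsf8, Tnfsf4, Tnfsf14, Tnfsf15 and Tnfsf11 lie past the right line, while no receptor triangle passes a line.

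Set directly against each other, the drug libraries differed in 13 members, all lower in JQ1+. These were 7 of the 11 measured ligands and 6 of the 17 measured receptors, where 6.87% of all measured genes were lower and 2.06% higher in JQ1+ than in flavopiridol. Tnfsf15, which passed the minimum only through flavopiridol, had to differ, and with the minimum in DMSO alone 6 of 10 ligands were lower, where 6.23% of genes were. Tnfsf8 was 16.3-fold lower in JQ1+ (interval 10.9 to 25.3), Tnfsf4 11.7-fold (interval 7.06 to 20.9) and Tnfsf11 10.9-fold (interval 4.73 to 30.9). The JQ1+ level of Tnfsf11 rests on 17 counts. Tnfrsf8 was 8.32-fold lower (interval 7.54 to 9.18), so both the CD30 ligand and its receptor were lower in JQ1+ than in flavopiridol. Tnfsf9 was 3.80-fold lower (interval 2.68 to 5.51), Tnfrsf21 3.04-fold (interval 2.10 to 4.46) and Tnfrsf26 2.97-fold (interval 2.56 to 3.47). The others were Tnfsf15, Cd70, Lta, Tnfrsf18, Tnfrsf10b and Tnfrsf17, with log2 changes from -1.94 to -1.02. Ltb and Tnfsf14 did not separate the drugs past 2-fold: Ltb in JQ1+ was 1.17 times its level in flavopiridol (interval 0.930 to 1.47) and Tnfsf14 0.639 times (interval 0.478 to 0.856).

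Part of this difference moved with the scaling of the libraries. The median of all genes was -0.21 for JQ1+ against flavopiridol as deposited and 0.04 after rescaling by the median of ratios, and the lower share of all calls went from 76.97% to 51.99%. After that rescaling 5 of 9 measured ligands and 3 of 17 receptors were lower in JQ1+ and none was higher, where 3.89% of all genes were lower and 3.60% higher. Tnfsf15 then fell below the minimum, while Lta, Tnfrsf10b, Tnfrsf17 and Tnfrsf21 had log2 changes of -0.76, -0.83, -0.87 and -0.98, inside the rule. For flavopiridol against DMSO the lower share of all calls went from 44.8% to 62.3%. There 4 ligands rose, where 2.43% of genes did, and 1 fell, where 4.02% did.

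**Figure D4:**
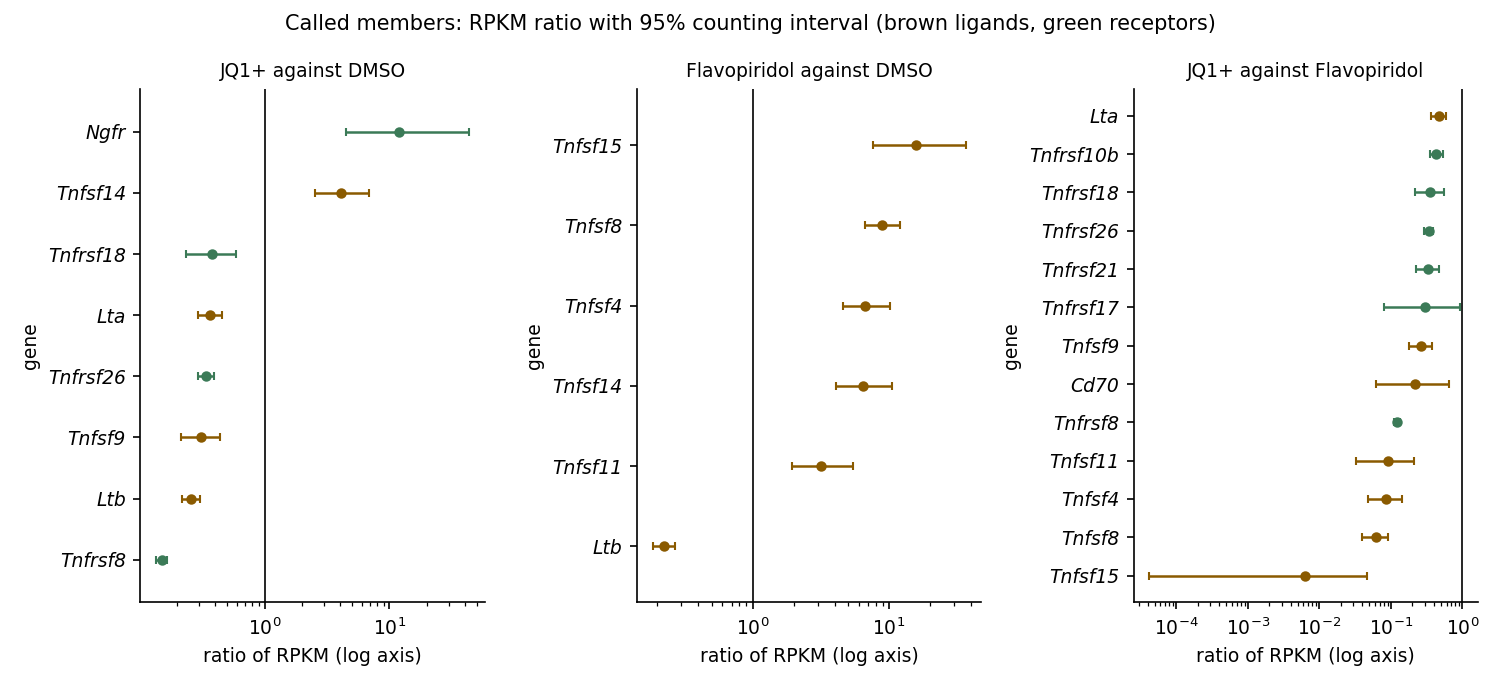
Plain RPKM ratio (log axis) of each member past the 2-fold rule in each of the 3 comparisons, with its 95% counting interval as a bar; ligands are brown and receptors green, and the horizontal scales differ between panels. Well-counted genes such as Tnfrsf8 and Ltb have narrow bars, while Tnfsf15 in JQ1+ against flavopiridol rests on 2 counts in JQ1+ and has the widest.

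In most ligand-receptor pairs one side or both stood below 1 RPKM. Of 23 textbook ligand-receptor pairs among the members, both genes reached 1 RPKM in 6 pairs in DMSO, 5 with JQ1+ and 7 with flavopiridol. With DMSO the pairs were Tnf and Lta with Tnfrsf1b, Tnfsf4 with Tnfrsf4, Tnfsf8 with Tnfrsf8, Tnfsf14 with Tnfrsf14 and Tnfsf10 with Tnfrsf10b. Tnfsf10 was below 1 RPKM with JQ1+, and Cd70 with Cd27 was added with flavopiridol. Many other pairs were one-sided: Tnfrsf13c, Tnfrsf13b, Cd40 and Fas were abundant with their ligands below 1 RPKM. Ltb stood at 15.2 RPKM or more and Tnfsf9 at 5.09 or more in every library, with Ltbr and Tnfrsf9 below 1 RPKM.

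Position on the chromosome, which the rule did not use, was shared by many members. In RefSeq's gene order 21 of the 41 members had another member with at most 2 protein-coding genes between them. Tnfsf15 and Tnfsf8 are adjacent on chromosome 4 and both rose with flavopiridol, while their neighbour Tnc, an extracellular matrix gene, stood at 1.27 RPKM in DMSO, 0.120 in JQ1+ and 1.81 in flavopiridol. Tnfrsf1b and Tnfrsf8 are adjacent on the same chromosome, and with JQ1+ Tnfrsf8 fell and Tnfrsf1b did not. On the far side of Tnfrsf1b, Dhrs3, a retinal reductase, stood at 94.7, 26.2 and 93.9 RPKM. Lst1, a myeloid and lymphocyte gene next to Ltb, stood at 8.36 RPKM in DMSO, 0.639 in JQ1+ and 1.33 in flavopiridol, low in the same libraries as Ltb. Of 31 measured genes directly beside a member, 3 fell with JQ1+, Tnc, Dhrs3 and Lst1, and 2 with flavopiridol, Lst1 and Snx29; none rose with either drug. Of all measured genes 5.29% fell and 1.98% rose with JQ1+, and 2.88% fell and 3.55% rose with flavopiridol.

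The genes that act below these receptors were described by 4 lists. In these lists of adaptors and kinases, death signalling, NF-kB subunits and negative feedback, all 55 genes were measured. With JQ1+ 3 fell and none rose, where 5.29% of all measured genes fell and 1.98% rose. With flavopiridol 1 fell and none rose, where 2.88% fell and 3.55% rose. Birc2, a ubiquitin ligase bound to TRAF proteins, fell with JQ1+ from 144 to 67.4 RPKM. Mlkl, the executor of necroptosis and an interferon-induced gene, stood at 46.9 RPKM in DMSO, 7.74 in JQ1+ and 28.2 in flavopiridol, and fell with JQ1+. Traf4 fell with flavopiridol, from 40.8 to 18.1 RPKM. The medians of the 55 genes were -0.11 with JQ1+ and -0.01 with flavopiridol, beside -0.08 and 0.13 over all measured genes. Between the drugs 3 of the 55 genes were lower in JQ1+ and 1 was higher, where 6.87% and 2.06% of all measured genes were. Traf1, an adaptor induced by NF-kB, was lower in JQ1+ (log2 change -1.05), as was Mlkl (-1.74), and Tnfaip8l2 was higher (1.04). Nfkb1 stood at 696, 436 and 794 RPKM and Nfkb2 at 211, 125 and 207 in DMSO, JQ1+ and flavopiridol, within the rule against DMSO. Of family members outside the naming rule, Relt stood at 21.1, 21.2 and 21.6 RPKM, while Eda, Edar and Eda2r were below the minimum.

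**Figure D5:**
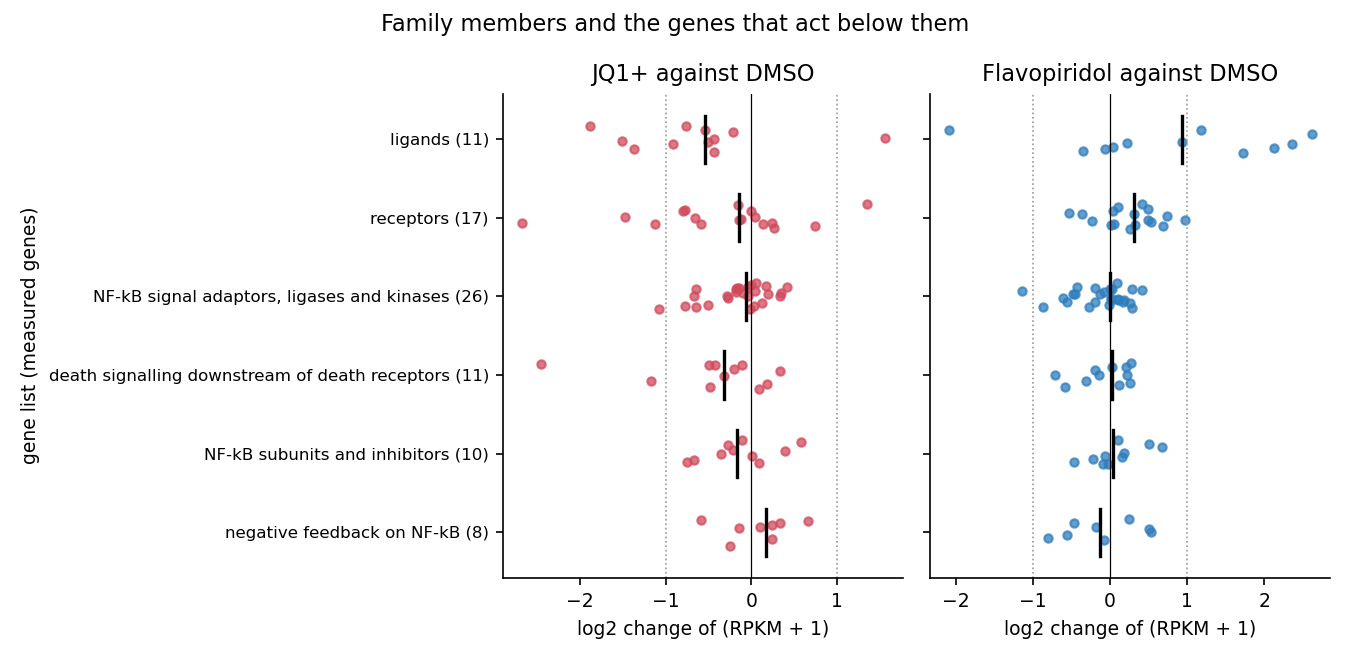
Log2 change of (RPKM + 1) against DMSO for each measured ligand, receptor and downstream gene (1 point per gene, black bars are medians, dotted lines mark 2-fold, small vertical offsets separate points); the number of genes stands in brackets. With flavopiridol the ligand median lies near 0.93, and the medians of the 4 downstream lists lie near 0.

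Markers of other cells moved in part with the members. The 9 myeloid markers found summed to 28.4 RPKM in DMSO, 20.1 in JQ1+ and 33.8 in flavopiridol, with Ly6g at 0 in all 3 and Emr1, the F4/80 gene, at 0.922, 0.801 and 9.47 RPKM, high in the library where Tnfsf4, Tnfsf8 and Tnfsf15 were high. Other myeloid markers were not highest there: Csf1r stood at 6.41, 4.03 and 3.95 RPKM, Cd68 at 20.5, 12.5 and 19.7 and Lyz2 at 0.181, 1.94 and 0.044, and the median log2 change of the 3 measured ones was -0.06 with flavopiridol. The 8 dendritic cell markers summed to 337, 53.7 and 135 RPKM, mostly from Bst2, which is also interferon-induced. Bst2, at 247, 43.0 and 99.8 RPKM, and Batf3, at 55.9, 2.98 and 11.1, were low in the libraries where Ltb was low. Others differed with flavopiridol. Flt3, at 26.6, 2.55 and 14.6 RPKM, was within 2-fold of DMSO there. Zbtb46, at 6.63, 4.36 and 6.85, and Xcr1, at 0.918, 0.763 and 2.59, were not low there. Siglech stood at 0 in DMSO and flavopiridol and Itgax at 0.029 at most. T cell markers summed to 58.7, 54.3 and 37.5 RPKM, nearly all from Cd2 and Lck. The next highest of that list, Trac, stood at 1.67, 1.09 and 1.76 RPKM, and Cd3e at 0.066 at most. Plasma cell markers summed to 1617, 1567 and 1353 RPKM, mostly from Igj, at 783, 693 and 501, and Xbp1, at 556, 553 and 423. Prdm1 went the other way, at 26.9, 67.2 and 56.5 RPKM, and rose with both drugs. Sdc1, at 13.4, 17.3 and 32.6, rose with flavopiridol. The median log2 change of the 6 plasma cell markers was -0.003 with JQ1+ and 0.39 with flavopiridol. This list holds Tnfrsf17, itself a member, so it is not separate from the members. With flavopiridol the median lies between Tnfrsf17, at 0.26, and Irf4, at 0.52. The 7 NK and cytotoxic markers summed to between 1.95 and 3.23 RPKM, the 7 stroma and endothelium markers to between 5.69 and 22.8, nearly all from Pecam1, and the 4 erythroid genes found to between 1.68 and 2.07. The part of other cells in the members' changes was not tested.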

How the data were processed

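RNA from 3 libraries, 1 each for DMSO, JQ1+ and flavopiridol, was depleted of ribosomal RNA after Trizol extraction, per the labels' protocols. Each library has a table of 33700 genes. Counts were deposited as whole numbers for each gene, in a column named count. Whether each count stands for 1 read is not known, as their sums exceeded the total behind the RPKM. The authors had scaled RPKM to gene length and a total for the library, as the deposited column names say. The build mm9 is named in the submitters' processing notes; the aligner and counting program were not given in the sources used here, nor was strand use.

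The tables were joined by Ensembl identifier, and 94 symbols that occurred more than once were represented by their most abundant row. Change was log2 of the ratio of (RPKM + 1), called at a size of 1 or more where the 3-library mean reached 1 RPKM. The count sum was on average 2.83 times the total behind the RPKM, found from GENCODE M21 exon lengths, so counts were divided by that number before the exact conditional binomial 95% interval of each ratio was taken. Of genes with at least 500 counts, between 45.8% and 46.2% per library matched that total within 0.1%. The procedure was run on simulated counts drawn from the counting model that the interval assumes. That run cannot check the divisor or the spread between cultures, because it takes the divisor as given and holds no such spread. With 1 library per group no test across genes was possible, and edgeR 4.0.16 (R 4.3.3) served only for TMM scaling factors; other work used Python 3.11.15, numpy 2.4.6, pandas 2.3.3 and scipy 1.17.1. All members with a mean of at least 1 RPKM are named with their values and the others with their highest. Members of downstream lists are named when past 2-fold, and others named with values, such as Nfkb1, Relt and the genes beside members, were chosen after their values were seen. The members and lists were chosen with earlier results of these data known. RefSeq tables of GRCm38.p6 gave promoter sequences and gene order. Edaradd, Jchain, Adgre1, Hbb-b1 and Hbb-b2 were not matched by symbol; Igj and Emr1 are older symbols of Jchain and Adgre1. Tnfsf12 was not analysed here, and the values of 1 downstream gene are not reported here. Alternatives were other additions (0.1 and 5), minimums, scalings, CPM, an interval that excludes 1, and summed rows.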

Additional observations from a re-analysis of the deposited data

How the results depend on the processing

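The 12 counts of ligands or receptors past 2-fold were recomputed under 11 alternatives, 10 of them planned, and 117 of 132 recomputed counts stayed within 1.5 times the reported one. With an addition of 5 RPKM, ligands higher with JQ1+ went from 1 to 0, ligands higher with flavopiridol from 5 to 3, ligands lower in JQ1+ than in flavopiridol from 7 to 3, receptors higher with JQ1+ from 1 to 0 and receptors lower in JQ1+ than in flavopiridol from 6 to 2. The shares of all measured genes fell as well. Those higher with JQ1+ went from 1.98% to 0.57% and those higher with flavopiridol from 3.55% to 0.94%. Genes lower in JQ1+ than in flavopiridol went from 6.87% to 2.22%. With an addition of 0.1 RPKM, ligands lower with JQ1+ went from 3 to 6, adding Tnfsf10, Tnfsf11 and Tnfsf15, and receptors higher with flavopiridol from 0 to 2. The matching shares of all measured genes went from 5.29% to 7.73% and from 3.55% to 5.86%. With a minimum mean of 5 RPKM, ligands higher with flavopiridol were 3, ligands lower in JQ1+ than in flavopiridol 4 and receptors higher with JQ1+ 0. The shares of all genes for these were 2.01%, 4.98% and 1.21%. With a minimum of 1 RPKM in DMSO, an alternative chosen after seeing the data, receptors higher with JQ1+ were also 0, where 1.29% of genes were. Receptors lower in JQ1+ than in flavopiridol were 3 after rescaling by the median of ratios, by TMM factors and in CPM, and with equal RPKM sums 1 receptor, Tnfrsf4, rose with flavopiridol. Of 624 recomputed log2 changes of single members, 588 kept their call and no called one changed sign, but 78 moved outside the counting interval of the reported value. After rescaling by the median of ratios, the change of Tnfrsf13b went from 0.49 to 0.32 with flavopiridol and from 0.24 to 0.35 with JQ1+. The change with flavopiridol went from 0.05 to -0.12 for Tnfrsf13c, which was not called. Narrow counting intervals thus do not cover the choice of scaling. No paired analysis was possible because each treatment has 1 library. Low counts limit Tnfsf15, Tnfsf11, Cd70, Tnfrsf17 and the members below 1 RPKM. Whether cultures differ by chance cannot be told from 1 library each.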
